A study of Tetranychus urticae with 5 samples.

Results

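The transcript levels described here are those of LS-VL, the strain of the two-spotted spider mite Tetranychus urticae that was kept without acaricide selection and served as the common comparison strain on all 5 arrays of the series. Each array held RNA of LS-VL labelled with Cy3 beside RNA of a spirodiclofen-selected strain labelled with Cy5. The partner was SR-VP, kept under 5000 mg/L spirodiclofen, on 3 arrays and SR-TK, kept under 1000 mg/L, on 2 arrays. All 3 strains were reared on kidney bean at 26 °C, and about 200 deutonymph females, the last stage before the adult, went into an extract. Only the Cy3 channel was used for levels, so no strain was compared with another, and an array is named below by the partner strain only to tell the 5 apart. The array's gene names, each a scaffold number followed by a gene number, gave 19601 genes with 3 probes each. Of these, 367 carry a symbol in their name, and they are the genes described by family: 117 ABC transporters, 86 carboxyl/cholinesterases (CCEs), 32 glutathione S-transferases (GSTs), 27 genes outside the large families, and the rest cytochrome P450s.

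Spider mites feed on plants with very different defence chemicals and are known for large families of detoxification genes. Cytochrome P450s oxidise lipophilic compounds, CCEs cleave esters, GSTs join glutathione to reactive compounds, and ABC transporters move substrates across membranes at the cost of ATP. Members of the same families also have housekeeping or developmental roles, such as the synthesis of the moulting hormone, and some CCE relatives act in nerve and cell adhesion with no hydrolase activity. A deutonymph is a feeding nymph that has yet to pass its final moult. No gene name on the array marks a stage, a sex or a tissue (no vitellogenin, cuticle protein, myosin, actin or tubulin is named), so the label of deutonymph females was not checked against markers.

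A level is given as the log2 Cy3 signal after background correction and normalization between the 5 channels, averaged over the 3 probes of a gene and then over arrays, with the SD over the 5 arrays after ±. The percentile is the position of a gene's level among all 19601 genes. Probes bind their targets to different degrees, so an order of genes by level is a description of signal and not of molecule numbers. An array gives only these 5 values for a gene, and the labels give no separate LS-VL extract for each array, so the SD may be partly technical. A constant of 50 was added to each corrected signal before the log was taken, which compresses differences among dim genes. Fewer cells of a type and less RNA per cell cannot be told apart in whole mites.

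Most of the array gave a signal in LS-VL. At least 1 probe was well above background on all 5 arrays for 12834 genes, which is 65.5% of the array. A further 2911 genes passed on 1 to 4 arrays, and 3856 genes, or 19.7%, passed on none. The median level was 8.40 in genes that passed on all 5 arrays, against 5.94 in those that passed on none and 5.82 to 5.87 in the negative control spots before normalization between arrays. Among 308 negative control spots an array, 0 or 1 was well above background, and no gene spot was saturated. SR-VP array 3 stood apart from the rest. There 58.9% of gene spots were well above background, against 66.8% to 71.2% on the other 4 arrays, and its lower-quartile signal was 85, against 56 to 58.5.

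**Figure D1:**
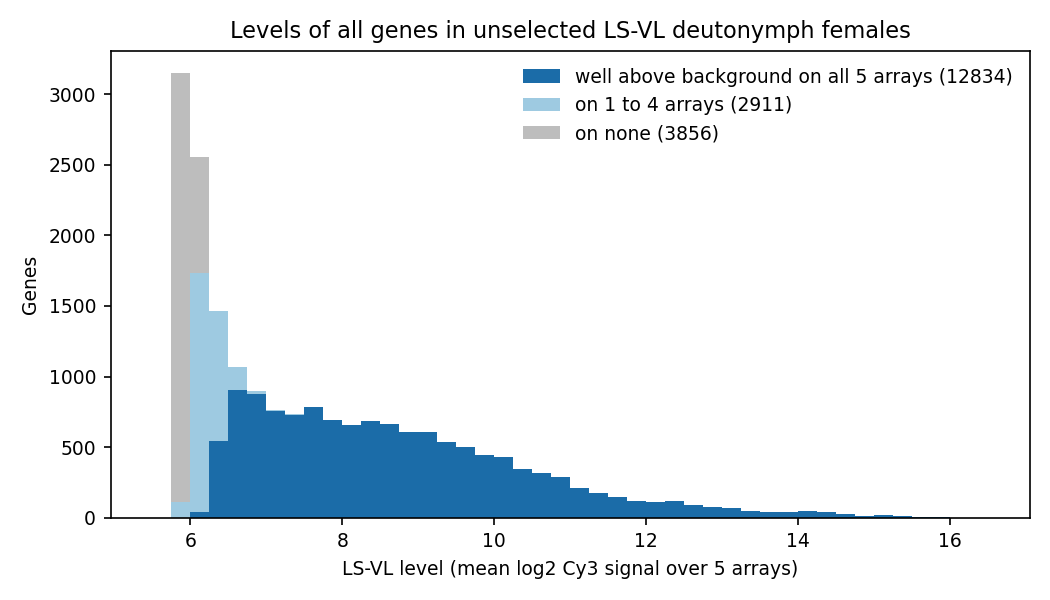
Number of genes (vertical axis) by LS-VL level, the mean log2 Cy3 signal over 5 arrays (horizontal axis), stacked by how many arrays had at least 1 probe well above background. The 3856 genes that passed on no array pile up at the dim end, none above 6.21, while the 12834 genes that passed on all 5 arrays reach from 6.07 to 16.04.

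Signal was concentrated in few genes. Levels ran from 5.76 to 16.04, with a median of 7.22, and the highest 10% of genes began at 10.55. The 100 brightest genes held 19.6% ± 1.72 of the summed background-subtracted signal (SD, n = 5 arrays), and the 1960 brightest held 74.5% ± 2.01. The 10 brightest genes held 3.27% ± 0.59. None of these 10 carries a symbol, and the RefSeq gene table matched none of the plain names, so they are given by name only. Tetur09g03790 led with 16.04 ± 0.21, followed by Tetur07g01750 with 16.00 ± 0.14 and Tetur07g00360 with 15.96 ± 0.31. The differences among these 3 were smaller than their SDs, so their order is not fixed by the arrays. Tetur02g06200, Tetur07g00190, Tetur02g11370, Tetur29g01460, Tetur05g05840, Tetur10g04920 and Tetur32g01160 followed, between 15.80 and 15.55. The levels of the 3 probes spanned at most 0.78 in 8 of the 10, and 1.24 in Tetur07g00190 and 1.22 in Tetur05g05840.

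Most genes with a symbol gave a signal. All 5 arrays detected 316 of the 367 (86.1%, against 65.5% of all genes), 36 were detected on 1 to 4 arrays and 15 on none (4.09%, against 19.7%). Their median percentile by mean level was 66.7, and 240 of them lay above the median gene. On the arrays taken alone the median percentile was 65.1 to 66.2 (SD 0.45). The SD after a list's percentile is that of the medians on single arrays, while the percentile itself comes from mean levels. There were 51 (13.9%) among the brightest genes, those above the 90th percentile, which by construction hold 10% of the array. These shares differed by family. GSTs and the mixed group of 27 stood highest by median level, at percentiles of 89.3 ± 1.73 and 87.9 ± 1.22. ABC transporters lay at 66.5 (63.4 to 66.3 on single arrays, SD 1.07), CCEs at 58.4 ± 1.15 and P450s at 58.1 ± 1.00. The gap between P450s and CCEs was smaller than the spread over arrays, while GSTs exceeded the other 3 enzyme and transporter families on each array taken alone.

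**Figure D2:**
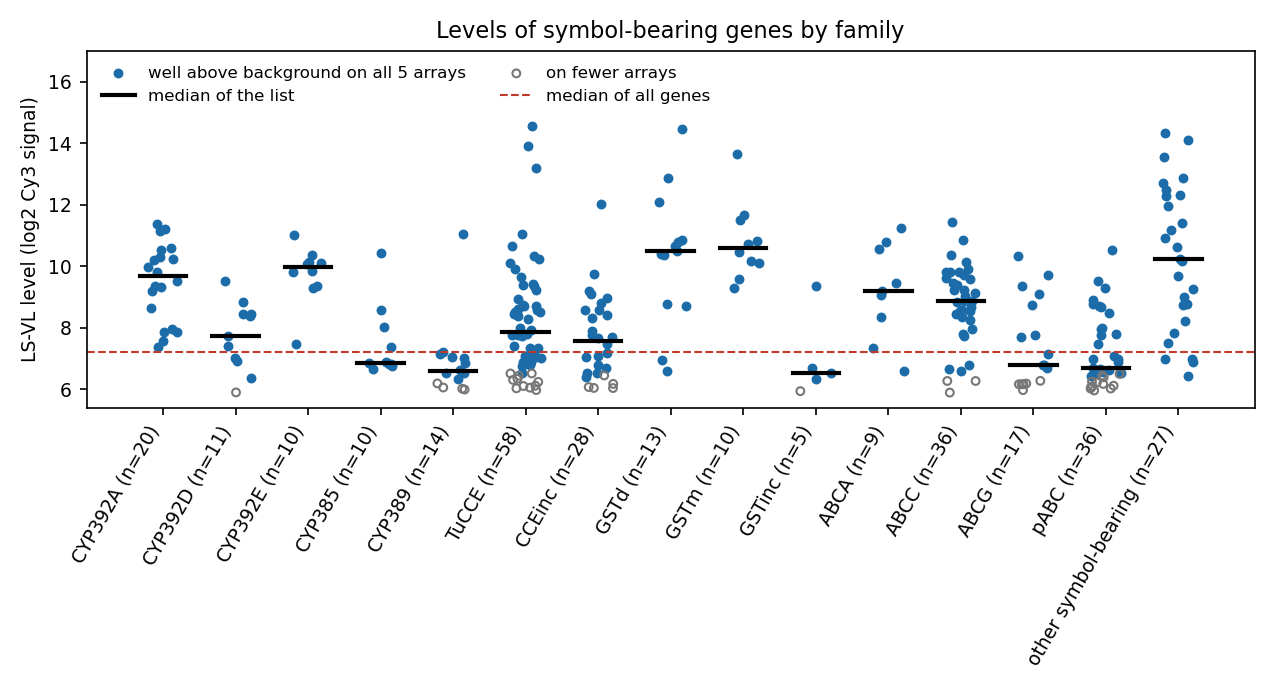
LS-VL level (log2 Cy3 signal, mean of 5 arrays) of each symbol-bearing gene in 15 lists, with filled points for genes well above background on all 5 arrays and open points for the rest; bars mark list medians and the dashed line the median of all genes, 7.22. All 20 CYP392A, all 10 CYP392E and all 10 GSTm genes lie above the line, while 1 of 14 CYP389 genes does.

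By mean level, the brightest gene with a symbol was an esterase, TuCCE-51. The GST TuGSTd05 read above it on SR-VP arrays 1 and 2 and SR-TK array 1, at 14.80, 14.58 and 14.87. TuCCE-51, a carboxyl/cholinesterase, read 14.44, 14.40 and 15.004 on SR-VP arrays 1 to 3 and 14.17 and 14.70 on SR-TK arrays 1 and 2, a mean of 14.54 ± 0.32 (percentile 99.6, 79th of all genes). All 5 values were high, with SR-VP array 3 the highest. TuCCE-57 followed at 13.90 ± 0.22, with 13.85, 14.10, 13.92, 13.55 and 14.06 on the arrays in the same order. TuCCE-14-nrl read 13.04, 13.29, 13.33, 12.92 and 13.40, a mean of 13.20 ± 0.21. Its suffix nrl is the usual short form of neuroligin-like, a branch of the family whose known members are adhesion proteins of synapses. These 3 esterases did not overlap with CCEinc-09 at 12.01 ± 0.14 or with TuCCE-28 at 11.05 ± 0.32, the next in the family.

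**Figure D3:**
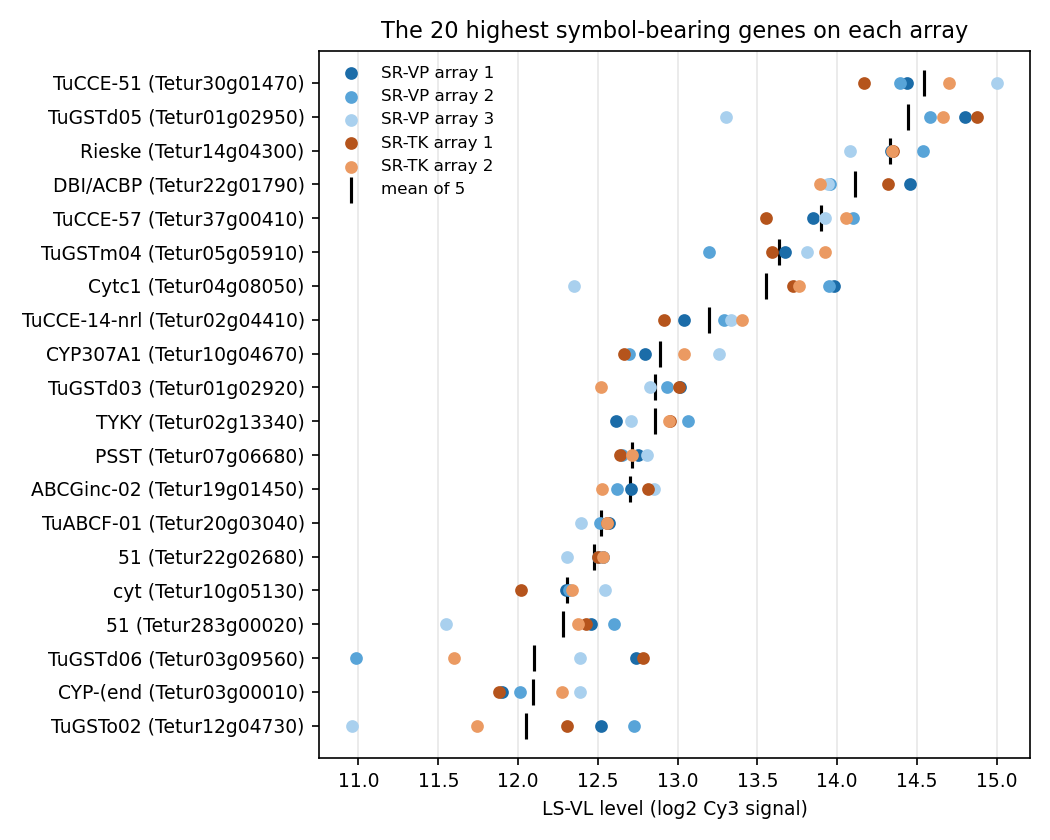
LS-VL level (log2 Cy3 signal, horizontal axis) of the 20 highest symbol-bearing genes on each of the 5 arrays (points) with the mean (bar). The values of TuCCE-51 lie between 14.17 and 15.004, while TuGSTd05 and Cytc1 each have 1 low value, on SR-VP array 3, more than 1 log2 unit under the other 4.

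The rest of the CCE family spread over the whole range of the array. Of 86 members, 70 were well above background on all 5 arrays (81.4%), 12 on 1 to 4 arrays and 4 on none. In the brightest 10% of the array were 6 members (6.98%), and the family's median level, 7.76, was near the middle of the array, where 52 members lay above the median gene. Neighbours in number shared a level in some cases and not in others. TuCCE-02 to TuCCE-09 carry numbers close together on scaffold 1, and among them TuCCE-09 read 9.38 ± 0.20, TuCCE-05 8.51 ± 0.07 and TuCCE-02 8.43 ± 0.15. TuCCE-03 and TuCCE-04, numbered between TuCCE-02 and TuCCE-05, were not well above background on any array. On scaffold 29, TuCCE-50 at 10.33 ± 0.05, CCEinc-20 at 9.19 ± 0.05 and TuCCE-49 at 8.95 ± 0.07 carry consecutive numbers, and the largest of these SDs was 0.07. The 7 relatives with the suffixes nrl, nrt and gli, named after adhesion proteins, had a median of 7.05, far under TuCCE-14-nrl, and the second of them, TuCCE-52-gli, reached 8.44 ± 0.22. The 28 models with inc in their names had a median of 7.56, against 7.86 for the 58 other CCEs. TuCCE-17, at 8.62 ± 0.03, had the smallest SD of all symbol-bearing genes well above background on all arrays.

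GSTs were bright as a family. Of 32 members, 31 were well above background on all 5 arrays (96.9%) and 14 lay in the brightest 10% (43.8%, against 10% by construction). The family's median level was 10.44, against 7.22 for all genes. TuGSTd05, of the delta class, read 14.80, 14.58 and 13.30 on SR-VP arrays 1 to 3 and 14.87 and 14.66 on SR-TK arrays 1 and 2 (14.44 ± 0.65). Of its 3 probes, 1 read 10.12 on SR-VP array 3, against 14.36 to 14.70 on the other 4 arrays, whereas the remaining probes read 15.07 and 14.72 there. Without that spot the mean was 14.74 ± 0.12, above that of TuCCE-51 by less than the SD of the esterase.

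The delta and mu classes are the 2 large groups among the GSTs. The 13 delta members had a median of 10.51 with a range of 6.61 to 14.44. TuGSTd03 stood at 12.86 ± 0.21 and TuGSTd06 at 12.10 ± 0.78, and 2 members, TuGSTd10 at 6.97 ± 0.24 and TuGSTd13 at 6.61 ± 0.11, lay under the median gene. Those with low levels sit among bright ones on scaffold 26: TuGSTd12 was at 10.87 ± 0.30, TuGSTd07 at 10.78 ± 0.13 and TuGSTd08 at 10.41 ± 0.26 in the same run of numbers. The 10 mu members had a median of 10.60, and all lay above the median gene. TuGSTm04 to TuGSTm12 carry 9 consecutive numbers on scaffold 5. TuGSTm04 led this run with 13.67, 13.19 and 13.81 on SR-VP arrays 1 to 3 and 13.59 and 13.93 on SR-TK arrays 1 and 2 (13.64 ± 0.28). No value of TuGSTm04 overlapped with its neighbour TuGSTm05 at 11.52 ± 0.44, and the lowest of the run was TuGSTm07 at 9.29 ± 0.34.

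The smaller GST classes were also bright, with TuGSTo02 at 12.05 ± 0.71 and TuGSTo01 at 10.80 ± 0.07 (omega), TuGSTz01 at 11.94 ± 0.32 (zeta) and TuGSTk01 at 10.11 ± 0.10 (kappa). The 5 models with inc in their names had a median of 6.53. Among these, TuGSTinc04 was not well above background on any array, and TuGSTinc03 reached 9.35 ± 0.23 from probes that read 6.01, 10.75 and 11.29, so its level depends on the probe.

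P450 levels ranged from 5.90 to 12.89. Of the family, 93 were well above background on all 5 arrays (88.6%), 6 on 1 to 4 arrays and 6 on none, and 9 lay in the brightest 10%. The highest was CYP307A1, which in insects is named spook and acts early in the synthesis of ecdysteroids, the moulting hormones. It read 12.79, 12.69 and 13.26 on SR-VP arrays 1 to 3 and 12.66 and 13.04 on SR-TK arrays 1 and 2 (12.89 ± 0.25, percentile 98.0). Later steps of that pathway were dimmer, with CYP315A1 at 9.20 ± 0.46, CYP302A1 at 8.82 ± 0.27 and CYP314A1 at 7.48 ± 0.14, and neverland, the oxygenase of the first step, was at 10.25 ± 0.34. No value of CYP307A1 overlapped with any of these 4, whereas CYP315A1 and CYP302A1 overlapped.

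The CYP392 family, a large expansion within the CYP2 clan of the spider mite, has the most P450 names on the array, 44. Of these, 43 were well above background on all 5 arrays, 39 lay above the median gene, and the median level was 9.30 (percentile 78.8 ± 1.05). In the brightest 10% were 5 of the 44 (11.4%), close to the share of the whole array, and the 3 brightest P450s carry other names. Its subfamilies differed in level. The 10 CYP392E members had a median of 9.97 and the 20 CYP392A members 9.67, and all 30 lay above the median gene. The 11 CYP392D members had a median of 7.75, and 7 of them lay above it. CYP392A5 led the family with 11.27, 11.35, 11.47, 11.26 and 11.51 on the arrays in the order above (11.37 ± 0.11). CYP392A14 at 11.22 ± 0.21 and CYP392A13v3 at 11.15 ± 0.22 overlapped with it. CYP392A3 at 7.36 ± 0.06 and CYP392A1 at 7.56 ± 0.33 were the dimmest of subfamily A.

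Several CYP392 genes carry neighbouring numbers, and the runs differed in how even they were. On scaffold 27, CYP392E8 read 10.92, 10.97, 11.09, 10.95 and 11.09 (11.01 ± 0.08), above each value of its neighbours CYP392E6 at 10.13 ± 0.20, CYP392E4 at 10.12 ± 0.26 and CYP392E7 at 10.09 ± 0.26. These 3 did not differ beyond their SDs. CYP392E10, further along the scaffold, was at 9.85 ± 0.09. CYP392E5p lies in the same run, and its p is the mark of a pseudogene in P450 nomenclature, yet it read 9.82 ± 0.24. The run of CYP392D genes on scaffold 3 was uneven. CYP392D7 was at 9.54 ± 0.10 and CYP392D8 at 8.45 ± 0.18, CYP392D6 at 7.75 ± 0.19 and CYP392D2 at 6.36 ± 0.09, while CYP392D9p was not well above background on any array. Whether probes of one member also bind another was not tested, so an even run does not show that each gene was transcribed.

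Other P450 families lay on both sides of the median gene. CYP388A1 was at 9.08 ± 0.30, CYP382A1 at 8.71 ± 0.24 and CYP384A1 at 7.99 ± 0.54, whereas CYP383A1 was at 7.18 ± 0.07 and CYP391A1 at 7.12 ± 0.19. Of the 14 CYP389 members, which belong to the CYP4 clan, 10 were well above background on all arrays, but 1 lay above the median gene. That one was CYP389B2 at 11.06 ± 0.14, whereas CYP389B1 was at 6.06 ± 0.09 and was well above background on 1 array. None of the 11 CYP389C members, 10 of them on scaffold 5, lay above the median gene, and their own median was 6.64. Of the CYP4 clan's 19 genes, CYP389B2 was the only one above the median gene, and both CYP390 genes were not above background on any array. All 10 CYP385 members were well above background on every array, with a median of 6.87. CYP385C1 stood out at 10.42 ± 0.13, followed by CYP385C2 at 8.58 ± 0.16. Names that differ only by a variant mark read alike in some cases and not in others. CYP385C3 was at 6.82 ± 0.14 and CYP385C3v2 at 6.86 ± 0.19, and CYP385C4 at 6.81 ± 0.18 and CYP385C4v2 at 6.88 ± 0.09. In contrast, CYP392A10 was at 7.86 ± 0.05 and CYP392A10v2 at 9.21 ± 0.11, CYP392A9 at 10.20 ± 0.47 and CYP392A9v2 at 9.36 ± 0.13, and the 2 genes both named CYP385B1 at 8.03 ± 0.18 and 6.68 ± 0.21.

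The remaining P450s included bright genes with incomplete names. Tetur03g00010, named only CYP-(end, read 11.90, 12.01, 12.39, 11.88 and 12.28 (12.09 ± 0.23), and its 3 probes agreed within 0.12. Tetur27g00250, named CYP, was at 11.62 ± 0.24 and lies in the numbering next to CYP392E4. The 18 P450s without a family number had a median percentile of 54.2. The 5 genes of the mitochondrial clan all lay above the median gene, and the 2 of them not named so far, CYP381A1 and CYP381A2, were at 8.93 ± 0.45 and 8.24 ± 0.05.

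ABC transporters had a median level of 8.34, and 95 of 117 were well above background on all 5 arrays (81.2%), 18 on 1 to 4 arrays and 4 on none. The 9 in the brightest 10% (7.69% of the family, against 10% by construction) came from several subfamilies. The highest was ABCGinc-02, which read 12.71, 12.62 and 12.85 on SR-VP arrays 1 to 3 and 12.81 and 12.52 on SR-TK arrays 1 and 2 (12.70 ± 0.14). TuABCF-01 followed at 12.52 ± 0.07, with 12.57, 12.51, 12.40, 12.55 and 12.56 in the same order. ABCF and ABCE proteins have no membrane span and are known for work at ribosomes. The 3 ABCF genes had a median of 10.56, and TuABCE-01 was at 9.38 ± 0.54.

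TuABCC-12 came next at 11.44 ± 0.35. Its subfamily ABCC holds the multidrug resistance proteins, and 30 of its 36 genes lay above the median gene, with a subfamily median of 8.88. The ABCB subfamily includes P-glycoproteins, and its 3 genes read 11.15 ± 0.21 (TuABCB-02), 9.42 ± 0.21 (TuABCB-mdr1) and 9.36 ± 0.25 (TuABCB-01). TuABCA-05, of the lipid-carrying subfamily A, was at 11.23 ± 0.35, and 8 of 9 ABCA genes lay above the median gene. The ABCG subfamily spanned most of the range. Its brightest model, ABCGinc-02 at 12.70, is given above, and its other model with inc in its name, ABCGinc-01, was at 6.43 ± 0.05. The 17 ABCG genes without inc had a median of 6.80, 7 lay above the median gene, and 11 were well above background on all arrays (64.7%, against 65.5% of all genes). TuABCG-16 was the highest of these 17 at 10.33 ± 0.57. The 36 names that start with pABC had a median of 6.68, with 24 well above background on all 5 arrays (66.7%). The highest of those was pABC-13 at 10.51 ± 0.47, and the files do not say what the p stands for.

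The 27 other genes with a symbol were all well above background on all 5 arrays, and 13 lay in the brightest 10% (48.1%). Of the 5 brightest, 4 are known parts of the mitochondrial respiratory chain, in which electrons pass from complex I to complex III, and DBI/ACBP, second of the 27, is a lipid-binding protein. These were picked out by level and not from a fixed list. Rieske, the iron-sulphur protein of complex III, read 14.34, 14.54 and 14.08 on SR-VP arrays 1 to 3 and 14.35 and 14.35 on SR-TK arrays 1 and 2 (14.33 ± 0.16). Cytc1, also of complex III, was at 13.55 ± 0.68, with 12.35 on SR-VP array 3, against 13.72 to 13.98 on the other 4 arrays. TYKY and PSST, iron-sulphur subunits of complex I, were at 12.86 ± 0.19 and 12.71 ± 0.07. Names that appear cut, to 51, 49 or cyt, belong to 6 more genes, which lay between 11.17 and 12.48, and their identity was not worked out.

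Genes of lipid and heme metabolism were also in the brightest 10%. DBI/ACBP, the acyl-CoA binding protein, read 14.46, 13.95, 13.94, 14.32 and 13.89 (14.11 ± 0.26). ACCase, acetyl-CoA carboxylase, makes malonyl-CoA for fatty acid synthesis and is the enzyme that spirodiclofen inhibits. It read 10.80, 10.68 and 10.86 on SR-VP arrays 1 to 3 and 10.65 and 10.13 on SR-TK arrays 1 and 2 (10.62 ± 0.29, percentile 90.5), with SR-TK array 2 the lowest. ALAS, which makes the first compound of heme synthesis and so serves P450s, was at 10.91 ± 0.09. Of the pair that hands electrons to mitochondrial P450s, adrenodoxin (named Adx) was at 10.17 ± 0.07 and adrenodoxin reductase (AdR) at 8.74 ± 0.76. NOS, nitric oxide synthase, was at 9.01 ± 0.46, tyw1 at 9.69 ± 0.13, and MSR at 6.98 ± 0.26.

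Channels and enzymes of nerve and muscle, 4 genes in all, ranged from well above the median gene to under it. RyR, the calcium release channel, was at 9.27 ± 0.12 (percentile 78.4) and VGSC, the voltage-gated sodium channel, at 7.82 ± 0.13. TuCCE-41-AChE, acetylcholinesterase, stood at 6.88 ± 0.05 and GABA2 at 6.45 ± 0.07, both under the median gene, although all 4 were well above background on every array. By that rule 1 probe is enough. GABA2 had 1 probe well above background on all arrays, TuCCE-41-AChE had 2, and RyR and VGSC had 3 each. The 2 genes with a name cut to chitin were at 8.76 ± 0.08 and 6.99 ± 0.15.

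In all, 15 symbol-bearing genes had no probe well above background on any array. They were the P450s CYP392D9p, CYP390A1, CYP390B1, CYP389A1 and 2 named only CYP (Tetur03g01000 and Tetur21g00620), the esterases TuCCE-20, TuCCE-03, TuCCE-37 and TuCCE-04, TuGSTinc04, and the transporters TuABCC-35, ABCCinc-03, pABC-30 and TuABCG-06. Their levels lay between 5.90 and 6.12, next to the negative controls, and values there have no order. CYP392D9p, for example, read 5.91, 5.82, 5.89, 5.95 and 5.93. Only 3 probes a gene were read, so a gene in this list is not shown to be silent.

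The 5 LS-VL channels agreed closely over the array. Across all 19601 genes, levels on any pair of arrays correlated by 0.984 to 0.993 (Pearson) and by 0.974 to 0.990 (Spearman), which are descriptions over genes that share probes, slide and sample type. Between 96.9% and 98.6% of the 12834 genes detected on all arrays were within 2-fold on any pair. Their median SD over arrays was 0.15, against 0.16 in the 316 symbol-bearing genes among them, of which 226 had an SD under 0.25. The SD grew with level, and its median was 0.10 in genes below 7 and 0.23 in genes at 13 and above. The closest pairs were SR-VP array 1 with SR-TK array 1 and SR-VP array 2 with SR-TK array 2, where the SD of the difference was 0.28 and 0.31, against 0.33 to 0.40 in the other 8 pairs. Whether equal numbers mark a shared LS-VL extract or a shared labelling the labels do not tell. SR-VP array 3 was the one farthest from the mean of the 5 for 39.4% of these genes, against 13.9% to 16.7% for each of the other arrays.

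**Figure D4:**
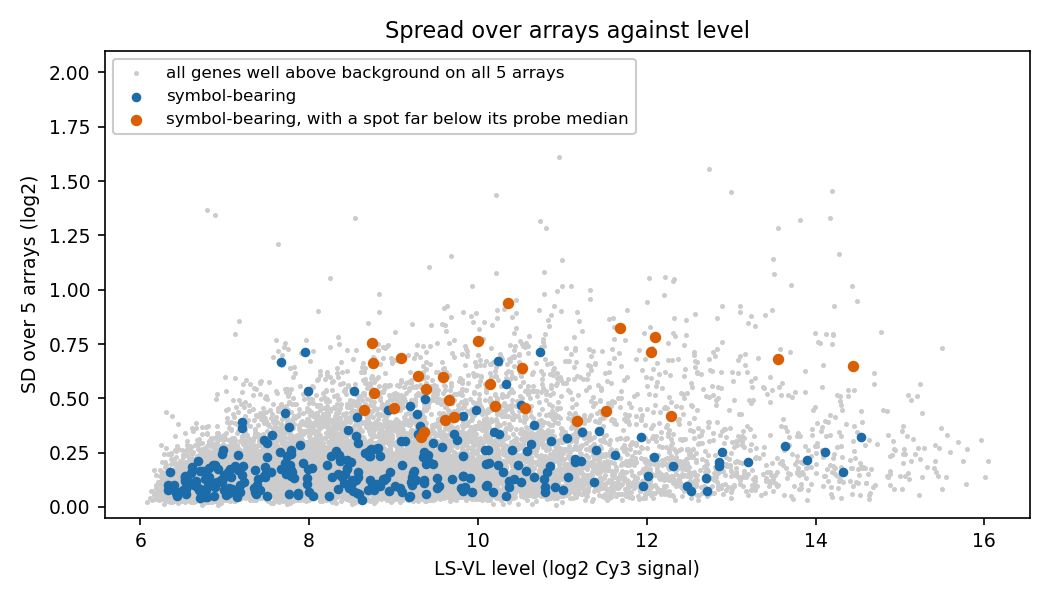
SD over 5 arrays (log2) against LS-VL level (log2 Cy3 signal) for the 12834 genes well above background on all arrays (grey) and the 316 symbol-bearing ones among them (coloured). The symbol-bearing genes with the largest SDs, up to 0.94 for TuGSTd04, mostly hold a spot far below the median of its probe.

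Most genes with a large SD held a spot that read far below the same probe on the other arrays. An SD above 0.5 occurred in 23 of the 316 symbol-bearing genes (7.28%), against 682 of 12834 genes (5.31%). Of the 23, 7 were GSTs, which make up 31 of the 316. Among probes with a median of at least 9, 991 of 76555 spots (1.29%) read more than 2 log2 units below their own probe's median over the 5 arrays. Of these, 58.1% lay in the outer 32 rows at either end of the array's 384 rows, which hold 14.9% of the spots of such probes. SR-VP array 3 and SR-TK array 2 had 152 and 140 such spots in the last 32 rows, whereas SR-VP array 1 and SR-TK array 1 had 91 and 88 in the first 32. SR-VP array 2 was different, with 31.3% of its 217 such spots in the outer rows and its highest count, 51, in rows 129 to 160. The Cy5 signal of the same spot was low as well, by more than 1 log2 unit, in 979 (98.8%). That share was not computed for the other spots of these probes, and the Cy5 channel holds the 2 selected strains. Of the 682 genes, 433 hold such a low Cy3 spot, and of the 23 symbol-bearing ones 16 do, among them 6 of the 7 GSTs. Such a spot tends to widen the SD of its own gene by construction, so this overlap is in part built in. Over the whole array, 783 of 19601 genes hold such a spot, and 28 of the 367 with a symbol.

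**Figure D5:**
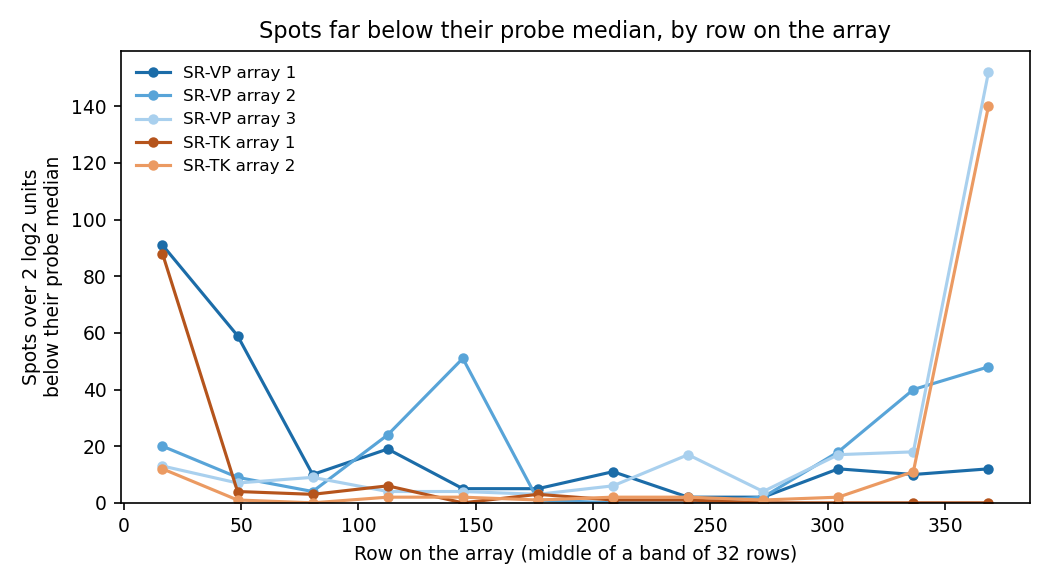
Number of spots more than 2 log2 units below the median of their probe over the 5 arrays, in bands of 32 rows along the array (horizontal axis, row number), for each array. SR-VP array 3 and SR-TK array 2 peak in the last band with 152 and 140 spots, SR-VP array 1 and SR-TK array 1 in the first with 91 and 88, and SR-VP array 2 in rows 129 to 160 with 51.

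The 6 GSTs with such spots besides TuGSTd05 differed in how far their levels moved without them. TuGSTm01 read 10.69, 12.01 and 11.70 on SR-VP arrays 1 to 3 and 12.84 and 11.15 on SR-TK arrays 1 and 2 (11.68 ± 0.82). It has 4 such spots in 2 of its probes, while its remaining probe read 13.14 to 13.51 on every array. Without the 4 spots its level was 12.85 ± 0.09. Likewise TuGSTd04 was at 10.36 ± 0.94 with them and 11.21 ± 0.31 without, TuGSTd06 at 12.10 ± 0.78 and 12.77 ± 0.24, and TuGSTo02 at 12.05 ± 0.71 and 12.52 ± 0.20. The change was smaller in TuGSTd09, at 8.76 ± 0.53 with its spot and 8.95 ± 0.43 without, and in TuGSTm05, at 11.52 ± 0.44 and 11.68 ± 0.36. Cytc1 was at 13.55 ± 0.68 and 13.86 ± 0.12, and AdR at 8.74 ± 0.76 and 9.34 ± 0.48. Leaving out low spots tends to raise a level and to narrow an SD by construction. It narrowed most but not all SDs, since that of CYP392A7 was 0.45 with such spots and 0.54 without. After it, 9 of the 23 symbol-bearing genes and 287 of the 682 genes kept an SD above 0.5. This step was chosen after the spots were seen, and the cause of the low spots was not tested.

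Probes of the same gene often differed in level. In the 9023 genes whose 3 probes were all well above background on every array, the median range between a gene's probes was 1.03, against a median SD over arrays of 0.15. Levels of any pair of probe positions correlated by 0.82 across these genes. The widest ranges among symbol-bearing genes were those of ABCCinc-02, TuGSTm10, TuABCA-09, TuGSTinc03 and CCEinc-06. ABCCinc-02 had probes at 6.01, 7.74 and 11.84, which is a range of 5.83 around its level of 8.53 ± 0.54. TuGSTm10 had probes at 7.90, 10.04 and 13.48, all read alike on the 5 arrays, so the SD of 0.19 beside its level of 10.47 does not carry this uncertainty. For TuABCA-09 and CCEinc-06, 1 probe stayed at 5.89 and 5.95, in the range of the negative controls, while the others exceeded 10. Of the names with a suffix, 331 (313 of them with a symbol, the others with an empty suffix) share their scaffold and gene number with a plain name on the array, but the levels of these 331 pairs correlated by only 0.11 across genes, so an equal number does not mark an equal gene here, and a gene with a symbol may be present again under another number.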

How the data were processed

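The authors deposited 1 scanner file for each of 5 two-colour Agilent arrays on 1 slide. Per the file headers, these hold the median Cy3 intensity of a spot and of its local background, a processed intensity that Feature Extraction 10.5.1.1 background-subtracted and dye-normalized, and flags, deposited as 0 or 1, for spots well above background. The submitters' processing notes name Agilent Feature Extraction 10.5. Deposited fold changes of the selected strains were not used, and the median Cy5 intensity served only to see whether spots low in Cy3 were low in both dyes.

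Background was corrected by normexp on all spots with an offset of 50, spots flagged as outliers (4 to 12 an array) were left out, and the 58803 Cy3 gene spots were quantile-normalized between the 5 arrays and put on the log2 scale, in limma 3.58.1 under R 4.3.3. The mean was taken over 3 probes, then over arrays. Quantile normalization makes the 5 distributions equal, so it removes any overall difference in brightness. A gene counted as well above background on an array when at least 1 probe had the flag. The steps were also run on simulated data, which held no spots far below their probe median, so that run does not bear on such spots. No test between groups was made, since all channels hold LS-VL.

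Named genes were the 10 highest of all, the 15 highest with a symbol, the 5 highest of each family, all symbols outside the 4 families, those detected on no array (up to 8 per family), the 5 largest and 5 smallest SDs, the 5 widest probe ranges, and 4 moulting hormone P450s, ACCase, TuCCE-51 and 4 CYP392E genes. Further genes were named as members of a run of numbers or as extremes of a list, after their values were seen. Members and lists were chosen with earlier results of these data known. Symbols are those of the array's names. The deposited names were matched to RefSeq's gene table, with no match for plain names, and no sequence of a probe or gene was used here. Alternatives changed the background correction, offset, normalization, use of probes, intensity column and detection rule, or left out an array.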

Additional observations from a re-analysis of the deposited data

Results flagged for a closer look

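Checks over the 5 arrays covered 99 values (92 named genes and 7 measures of the arrays). In 16 (16.2%), 1 array lay farther from the other 4 than a 95% limit allows. The values share the 5 arrays, and many genes were chosen by their level or SD here. A rate of 1 in 20 by chance is therefore no fair measure for this set. SR-VP array 3 was the odd one in 10 of the 16, SR-TK array 2 in 3, SR-TK array 1 in 2 and SR-VP array 2 in 1. On SR-VP array 3, low log2 levels were those of TuGSTd05 (13.30, against 14.58 to 14.87), Cytc1 (12.35, against 13.72 to 13.98), Tetur22g02680, named 51 (12.31, against 12.50 to 12.53), Tetur283g00020, also named 51 (11.55, against 12.37 to 12.60), and Tetur09g01850, named cyt (10.48, against 11.21 to 11.44). VGSC (7.59, against 7.85 to 7.92) and Tetur02g11370 (15.38, against 15.76 to 15.89) were low there as well. High on that array were Tetur11g04150, named 49 (11.85, against 11.22 to 11.37), and TuCCE-03 (6.27, against 5.98 to 6.04), a gene detected on no array. Its lower-quartile signal was 85, against 56 to 58.5.

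On SR-TK array 2, ACCase was low (10.13, against 10.65 to 10.86), Tetur02g06200 was low (15.34, against 15.83 to 16.01) and TuABCA-09 was high (9.24, against 9.02 to 9.06). On SR-TK array 1, TuCCE-28 (10.496, against 11.14 to 11.31) and Tetur32g01160 (15.31, against 15.56 to 15.66) were low. On SR-VP array 2, Tetur07g00360 was high (16.49, against 15.71 to 15.89). TuGSTd05, Cytc1, Tetur283g00020 and Tetur09g01850 each hold 1 spot more than 2 log2 units below its probe median on the array named.

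The arrays also carry 182 names that start with Rep, spotted 2730 times in all, which are outside the gene list. At least 65.4% of these spots were well above background in LS-VL on each array, and at most 77.6%, against 0 or 1 of 308 negative control spots.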

How the results depend on the processing

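Of 143 recomputed summary values, 125 kept their value within the spread over arrays (counts within 1.5 times) and 18 moved. The median percentile of P450s moved from 58.1 to 60.2 with plain background subtraction, 63.2 with the highest probe of each gene and 56.9 with the deposited processed signal. That of CCEs moved to 56.7 with the median probe, that of ABC transporters to 64.5 with the median probe and 63.7 with the processed signal, and that of other symbol-bearing genes to 86.4, 86.7, 90.6 and 89.2 with plain subtraction, the median probe, the highest probe and the processed signal. The median SD over all genes was 0.11, and was 0.18 with an offset of 10, 0.28 with no normalization and 0.15 in genes detected on every array. The lowest correlation between arrays, 0.984, was 0.975 in genes detected on every array and 0.987 without spots far below their probe median. With the highest probe, 6 of the 10 brightest genes were shared. The cause of these shifts was not tested.

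Leaving out 1 array at a time gave 12837 to 14259 genes detected on every array, highest without SR-VP array 3, and 3874 to 4078 detected on none. Median percentiles ranged over 58.3 to 59.1 for P450s, 57.8 to 58.8 for CCEs, 88.7 to 89.5 for GSTs, 66.2 to 67.0 for ABC transporters and 87.5 to 88.7 for the others. The median SD ranged over 0.080 to 0.113 and the lowest correlation over 0.984 to 0.988, with 0.080 and 0.988 without SR-VP array 3, and 9 of the 10 brightest genes were shared each time. Among 92 named genes, ABCCinc-02 moved most, by 23.6 percentile points with its highest probe. Leaving out low spots and averaging same-numbered arrays first were chosen after seeing the data. No paired analysis was possible because all channels hold LS-VL and no groups were compared. Arrays with 5 values a gene limit precision, and levels near 6 cannot be told from background.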
